A study of Mus musculus with 2 samples.

Results

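MG3 is the cluster of embryonic coronal suture cells that the study described as dura mater, and it held 365 of the 12165 labelled cells found in the deposited matrices. Its members were the cells that the study's own cell table placed in MG3, matched to their matrix by barcode, and the values below describe them against the 14 other labelled clusters. The coronal suture is the fibrous joint between the frontal and parietal bones of the skull. Cells came from wildtype C57/BL6 mouse embryos, with no transgene or treatment, at embryonic days E15.5 and E17.5, and transcripts were captured with 10x Genomics 3′ v2 chemistry. At E15.5, 10 pooled sutures were dissociated with collagenase II and dispase and dead cells were removed, giving 1 library. At E17.5, sutures of several embryos were dissociated with collagenase IV in 3 batches and sorted, and the deposited matrix joins these batches under barcode suffixes 1, 2 and 3, which the labels do not assign to batches. Skin, brain and part of the meninges were removed at dissection, so the number of MG3 cells is that left on the skull after peeling. With 1 library per stage there was no test between stages or clusters, and the clusters had been defined on these same cells, so all values are descriptions. Stage, enzymes, sorting, embryos and gene annotation all differ between E15.5 and E17.5 at once and cannot be told apart.

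The meninges are the membranes between skull and brain, and consist of the dura mater against the bone, the arachnoid, and the pia mater on the brain surface. Dura mater is a fibrous layer of fibroblasts joined by gap junctions, it is known for secreting signals that act on the overlying sutures, and its innermost cells border the arachnoid. The study took *Gja1*, *Fxyd5* and *Crabp2* as markers of dura mater. It proposed that MG3 may be the dural border cell layer known from adult meninges. In its tissue sections at E15.5, cells with *Crabp2* and *Nppc* but without *Gjb6* lay between the layers of MG4 and MG2.

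At E15.5, MG3 made up 3.75% of labelled cells (200 of 5335, exact 95% binomial interval 3.26 to 4.29), and the E17.5 share was 2.42% (165 of 6830, 2.06 to 2.81). Within E17.5 the share was 3.81% for suffix 1 (47 of 1234 cells), 1.52% for suffix 2 (42 of 2770) and 2.69% for suffix 3 (76 of 2826), so the suffixes of 1 stage differed by more than the stages did. Among cells of the 4 meningeal clusters, MG1 to MG4, MG3 gave 200 of 642 cells in the earlier library and 165 of 1263 in the later one. The shares depend on how much meninges stayed on each suture, which was not measured.

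MG3 cells had a median of 9389 unique molecular identifiers (UMIs, the counted transcripts) at E15.5, with a range of 2683 to 25222, and of 11987 at E17.5, with a range of 4988 to 31577. Medians of the other labelled cells were 8451 and 12312. Few MG3 cells carried the study's S or G2M cell cycle call, 10.5% at E15.5 and 4.24% at E17.5, against 33.1% and 35.6% of the other labelled cells. Mitochondrial transcripts took a median of 2.48% and 2.91% of MG3 UMIs, against 1.62% and 2.30% elsewhere. High doublet scores, the top 6% of each suffix or library, were given to 4% and 4.24% of MG3 cells, near the 3.99% and 4.91% of the other cells. The libraries shared 190 barcode sequences, and none of these belonged to an MG3 cell in both libraries.

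The levels below are UMIs of a gene summed over the cells of a cluster, per 1000000 UMIs of that cluster (CPM), followed by the exact 95% Poisson interval. Summed over the MG3 cells, 1966060 UMIs at E15.5 and 2040724 at E17.5 lay behind them. Ratios of MG3 to other cells carry exact 95% binomial intervals. All intervals and floors cover counting error only, not the spread between embryos.

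*Gja1* encodes connexin 43, the main gap junction protein of fibroblasts and bone cells. It lay on chromosome 10 (chr10:56377330-56402513, GRCm38, plus strand) and reached 1523 (1469 to 1578) CPM in MG3 at E15.5 and 1486 (1433 to 1539.6) at E17.5, with 1740.3, 1534 and 1309 in suffixes 1, 2 and 3. The MG3 level was 9.44 (9.05 to 9.85) times that of all other labelled cells together at E15.5 and 10.3 (9.87 to 10.7) times at E17.5. MG4, another meningeal cluster and the one the study labelled as arachnoid mater, did not stand below MG3 for this gene: the ratio of MG3 to MG4 was 0.819 (0.766 to 0.875) at E15.5 and 1.01 (0.962 to 1.07) at E17.5.

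*Fxyd5* encodes dysadherin, a small membrane protein that associates with the sodium pump. The gene (chr7:31032722-31042481, GRCm38, minus strand) stood at 936 (894 to 979.6) CPM in MG3 at E15.5 and 1439.7 (1388 to 1493) at E17.5, with 1496, 1362 and 1446 in the suffixes. No other cluster was higher in either library, and MG3 had 15.6 (14.7 to 16.6) and 14.6 (14 to 15.2) times the level of the other cells. Above MG4 the margin was narrower, 1.31 (1.18 to 1.45) times at E15.5 and 1.22 (1.15 to 1.28) times at E17.5.

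*Crabp2* encodes a binding protein that carries retinoic acid within the cell. At chr3:87948666-87953376 (GRCm38, plus strand), it gave 567 (534 to 601) CPM in MG3 at E15.5 and 529 (498 to 562) at E17.5, and 537, 490.5 and 544 in the suffixes. MG3 was highest of the clusters in both libraries, and its intervals in the 2 libraries overlapped, while the level of the other cells was 122 at E15.5 and 40.8 at E17.5. The ratio to the other cells was therefore 4.65 (4.36 to 4.96) at E15.5 and 13 (12.1 to 13.9) at E17.5. Against MG4 it was 1.27 (1.12 to 1.45) and 2.83 (2.51 to 3.2), and at E17.5 the ectocranial cluster EC4 came closer than any meningeal cluster, at 279.

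**Figure D1:**
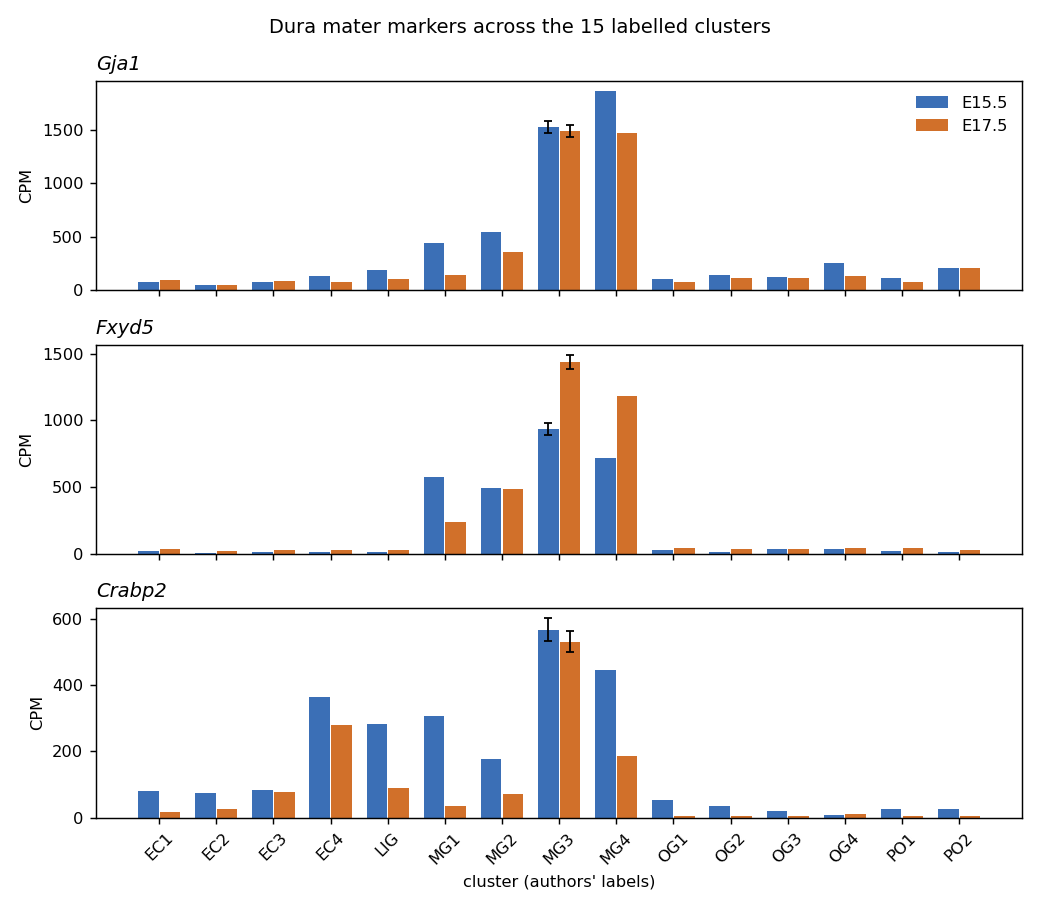
Levels of *Gja1*, *Fxyd5* and *Crabp2* in each of the 15 labelled clusters, in CPM on the vertical axis, with E15.5 and E17.5 bars side by side and an exact 95% Poisson interval drawn on MG3. MG3 is the highest bar for *Fxyd5* and *Crabp2* in both libraries, while for *Gja1* MG4 lies above it at E15.5 and within its interval at E17.5.

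The markers were also present together within single cells. After each cell was thinned to 3000 UMIs, all 3 transcripts were found in 139 of 199 MG3 cells at E15.5 (69.8%, 63.0 to 76.1) and in 123 of 165 at E17.5 (74.5%, 67.2 to 81.0), and no MG3 cell lacked all 3. Unthinned, the shares were 96.5% and 97.0%, against 81.2% and 59.4% of MG4 and 45.7% and 27.3% of MG2 cells. In thinned cells, all 3 were found in 58.1% and 35.6% of MG4 cells, in 20.5% and 9.72% of MG2 cells, and in at most 1.504% of every cluster outside MG1 to MG4. A thinned MG3 cell had a median of 4 *Gja1* UMIs in each library, with quartiles of 2 and 7 at E15.5 and, at E17.5, of 2 and 6. For *Fxyd5* the E15.5 median was 2 and that of E17.5 was 4, and for *Crabp2* it was 2 in both.

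Free RNA in droplets was gauged from macrophages, defined as unlabelled cells with UMIs of at least 3 of 5 macrophage genes, 405 cells at E15.5 with a median of 10528 UMIs and 851 at E17.5 with a median of 12032. *Crabp2* was found in 77.9% and 78.2% of thinned MG3 cells (96.5% and 97% unthinned) against 3.3% and 2.47% of thinned macrophages. *Gja1* was found in 95% and 97% (100% unthinned) against 15.7% and 13.6%. *Fxyd5* was found in 93.5% and 97.6% (100% unthinned), but 46.2% and 46.8% of macrophages held it too, so macrophages give no background for this gene.

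Markers of the arachnoid were present in MG3 below their level in MG4, and those of the pia were low. Summed over the study's arachnoid markers *Cldn11*, *Tbx18* and *Aldh1a2*, MG3 had 199 CPM at E15.5 and 275 at E17.5, against 617 and 1339 in MG4, the only cluster with more. *Cldn11*, the tight junction claudin of the arachnoid barrier, made up most of it, with 173 (156 to 193) and 239 (218 to 261) in MG3, which is 11.4 and 8.19 times the other cells but 0.362 (0.31 to 0.424) and 0.213 (0.193 to 0.235) times MG4. *Tbx18*, a T-box transcription factor, stood at 20.4 and 22.5 in MG3 and 75.2 and 70 in MG4. The pia markers *Ngfr*, *Lama1* and *Rdh10* summed to 6.10 and 6.86 CPM, the lowest of 15 clusters at E15.5 and the 8th highest at E17.5, and *Lama1* was at 0 UMIs in MG3 in both libraries, which allows up to 1.53 and 1.47 CPM. The study had used the dura markers on these same cells to describe MG3, so their levels here are no separate support for that label. Of the arachnoid and pia markers, *Cldn11* alone was at least 2-fold above the other cells in both libraries.

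Across 11894 genes with at least 50 UMIs in MG3 and the other labelled cells together in each library, 420 (3.53%) were at least 2-fold higher in MG3 in both libraries and 965 (8.11%) were at least 2-fold lower. The median ratio over all these genes was 0.914 at E15.5 and 0.954 at E17.5. Of the 420 genes, 302 were at least 2-fold higher in each of the 3 suffixes, 396 had intervals above 1 in both libraries, and 376 had at least 10 MG3 UMIs in both. For 147 of them MG3 exceeded each of the 14 other clusters in both libraries. Where another cluster is considered, the highest of the other 14 was MG4 for 166 and 222 genes, at E15.5 and E17.5 respectively, and MG2 for 96 and 90. Of the 965 lower genes, 595 had intervals below 1 in both libraries and 284 had no MG3 UMI in at least 1 library. Across genes, the log2 ratios of the libraries correlated with Pearson's r of 0.69 over 11894 genes, which are not independent replicates.

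**Figure D2:**
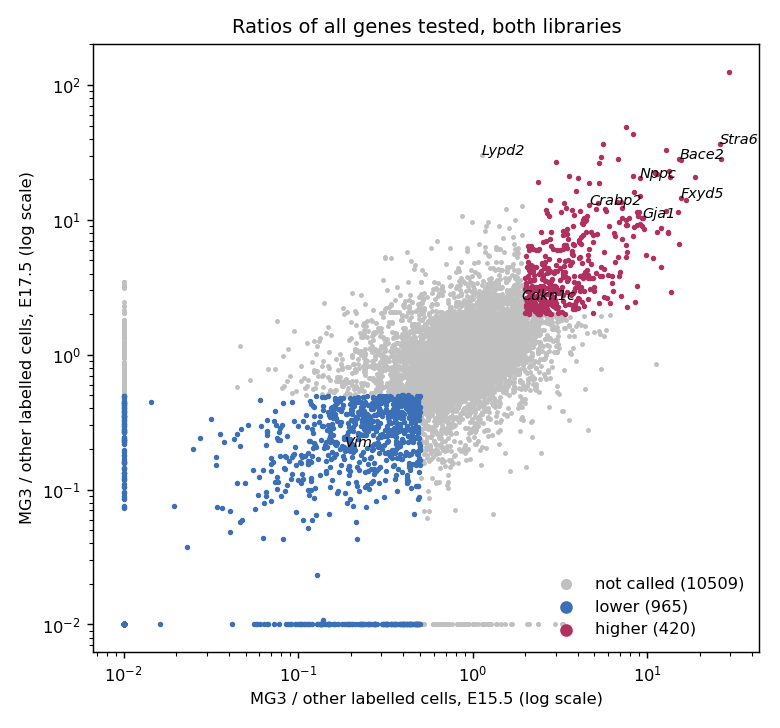
Ratio of the MG3 level to that of the other labelled cells for 11894 genes, E15.5 on the horizontal and E17.5 on the vertical log axis, with ratios below 0.01 drawn at 0.01. The 420 genes at least 2-fold higher and the 965 at least 2-fold lower in both libraries are coloured, and the 3 dura markers lie far up among the higher genes.

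The 15 genes with the largest ratio in the library where it was smaller included *Gja1* and *Fxyd5*, and several membrane carriers. *Slc16a9*, a monocarboxylate transporter family member linked to carnitine transport, stood at 119 (104 to 135) CPM in MG3 at E15.5 and 133 (118 to 150.1) at E17.5, 26.7 and 28.1 times the other cells. *Slc5a6*, the sodium-dependent multivitamin transporter for biotin and pantothenate, stood at 158 (141 to 176) and 228 (208 to 250.1), 13.6 and 20.9 times. *Slc16a1*, the lactate carrier MCT1, stood at 206 (186 to 226) and 200.4 (182 to 221), 9.09 and 9.35 times. The solute carrier gene *Slc35g1* stood at 33.1 and 43.6, at ratios of 15.6 and 27.6. All of these were higher in MG3 than in the other labelled cells together in each of the 3 suffixes.

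Enzymes and surface proteins formed another group of leading genes. *Bace2*, a membrane-bound aspartyl protease, reached 271 (248 to 295) CPM in MG3 at E15.5 and 336 (312 to 362) at E17.5, with 294, 361 and 348 in the suffixes. MG4 held the next highest level, 125 and 128. *Bace2* and *Ces2g*, a carboxylesterase gene at 53.4 and 96.5, were the only 2 of the 420 genes with at least 50 MG3 UMIs in each library and at least 2-fold above every other cluster in both libraries, a count made after the values were seen. *Thbd*, which encodes thrombomodulin, an anticoagulant receptor usually known from vessel walls, stood at 162 (145 to 181) and 230.3 (210.0 to 252) in MG3. Its level in MG4 was 200.1 and 143, above MG3 at E15.5 and below it at E17.5. *Tmem86a*, a lysoplasmalogenase gene, stood at 103 and 87.7, 9.41 and 9.03 times the other cells. It was found in 22.6% and 22.4% of thinned MG3 cells, against 27.4% and 23.3% of thinned MG4 cells. *Prmt8*, a membrane-anchored arginine methyltransferase best known from neurons, stood at 43.2 and 78.4, 16.7 and 13.9 times. Among the counted genes, the highest ratios belonged to *Dnajc5b*, a DnaJ-family cochaperone gene, at 31 and 33.3 CPM and 29.5 (19.9 to 43.9) and 126 (77.9 to 209) times the other cells.

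*Cdh5* encodes VE-cadherin, the adhesion protein that defines endothelial junctions, and it was among the leading genes at 59.5 (49.2 to 71.3) and 81.3 (69.4 to 94.7) CPM in MG3, 11.1 and 22.2 times the other cells. Summed over 8 endothelial markers, MG3 had 111.4 and 121 CPM against 79.0 and 37.3 in the other cells. Most of the sum outside *Cdh5* came from the receptor tyrosine kinase gene *Tek*, at 28 and 15.2 against 56 and 13 in the other cells, and the secreted factor gene *Egfl7*, at 21.9 and 17.1 against 8.96 and 14.8. The defining endothelial markers *Pecam1*, *Kdr* and *Emcn* were near 0, *Pecam1* at 0.509 and 1.47, *Kdr* at 0.509 and 1.96, and *Emcn* at 0.509 and 1.96, and *Tie1* and *Cldn5* lay at or under 0.98 CPM in both libraries. *Cdh5* was found in 14.6% and 20.6% of thinned MG3 cells (40% and 58.8% unthinned) against 1.27% and 2.23% of thinned macrophages, at the depths given above. Of the 8 markers, 5 had enough UMIs to be counted, and *Cdh5* alone was higher in both libraries, beside 3.53% of all genes. MG4 had *Cdh5* at 82.8 and 60.5 and MG2 at 6.06 and 4.13.

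**Figure D3:**
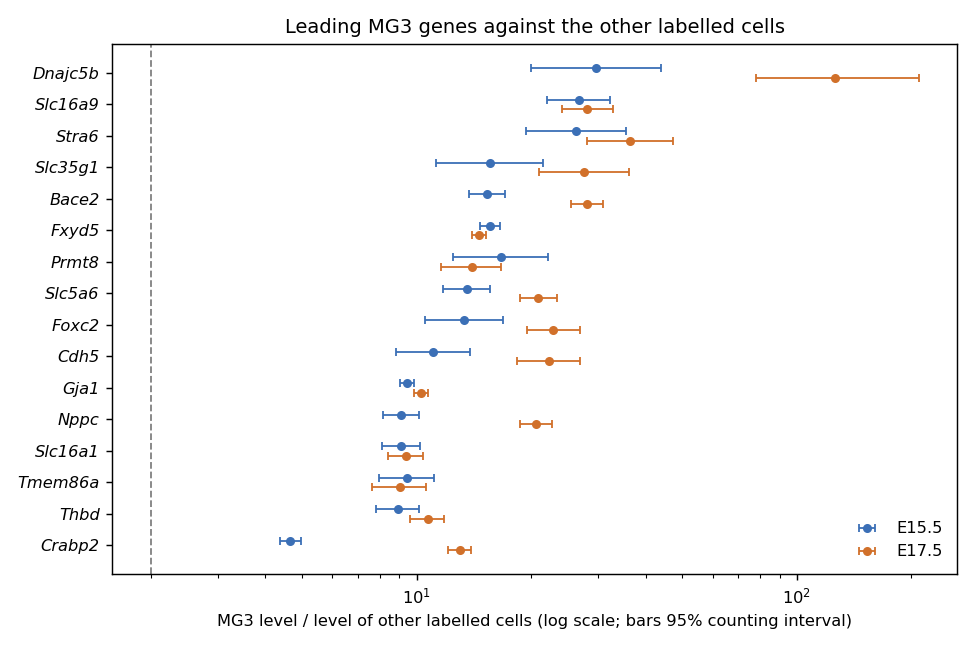
Ratio of MG3 to all other labelled cells for the 15 leading genes and *Crabp2* on a log axis, with exact 95% intervals and a dashed line at 2, E15.5 and E17.5 as separate points. *Dnajc5b* has the highest ratios, 29.5 and 126, and all 16 genes lie above the line in both libraries.

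Leading genes also included a secreted peptide, a forkhead factor and a retinol receptor. *Nppc*, which encodes C-type natriuretic peptide, an activator of the receptor guanylyl cyclase Npr2, stood at 230.4 (209.7 to 253) CPM in MG3 at E15.5 and 288 (265 to 312) at E17.5, with 332, 282 and 264 in the suffixes. Its order against MG2 differed between libraries, with a ratio of MG3 to MG2 of 0.77 (0.686 to 0.863) at E15.5 and 1.49 (1.34 to 1.66) at E17.5. *Foxc2*, a forkhead transcription factor of mesoderm and vessels, stood at 58 (47.8 to 69.7) and 115 (101 to 131) in MG3, against 107 and 96.4 in MG4. *Stra6*, the cell-surface receptor that takes up retinol from its plasma carrier, stood at 48.3 (39.1 to 59.1) and 53.9 (44.3 to 65), 26.2 and 36.4 times the other cells. MG4 and MG3 were the clusters with most *Stra6*, MG4 at 57.2 and 35.3, and in MG2 it was 5.05 and 3.1.

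Promoter windows were looked up for the leading genes and the dura markers, since these genes define the cluster's profile. Of 16 genes, 10 had an entry in the RefSeq promoter table, and for 5 the 250 bases before the start (GRCm38.p6) held no annotated exon of any gene. The windows are printed 5′ to 3′ on the gene's strand, and capitals mark matches to the motifs searched on both strands: TATAAA, the GC box GGGCGG, the forkhead motif TGTTTAC, the retinoid half-site AGGTCA and the AP-1 site TGACTCA. They are *Gja1* (chr10:56377050-56377299, plus strand), *Nppc* (chr1:86670574-86670823, minus strand), *Slc16a1* (chr3:104638414-104638663, plus strand), *Slc35g1* (chr19:38395730-38395979, plus strand) and *Stra6* (chr9:58128838-58129087, plus strand). *Stra6* had 4 listed starts, and the window is that of the first one listed whose window held no annotated exon. It lies within the annotated span of the gene (chr9:58063788-58153996), not before it.
Gja1: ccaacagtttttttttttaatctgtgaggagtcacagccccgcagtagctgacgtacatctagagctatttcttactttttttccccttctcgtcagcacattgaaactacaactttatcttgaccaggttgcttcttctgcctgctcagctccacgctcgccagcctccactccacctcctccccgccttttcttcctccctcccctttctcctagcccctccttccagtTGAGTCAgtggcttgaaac
Nppc: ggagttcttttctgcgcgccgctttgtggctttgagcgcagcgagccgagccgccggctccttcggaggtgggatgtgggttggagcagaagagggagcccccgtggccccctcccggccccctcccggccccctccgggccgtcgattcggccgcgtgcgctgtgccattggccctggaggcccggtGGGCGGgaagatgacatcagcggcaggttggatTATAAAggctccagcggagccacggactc
Slc16a1: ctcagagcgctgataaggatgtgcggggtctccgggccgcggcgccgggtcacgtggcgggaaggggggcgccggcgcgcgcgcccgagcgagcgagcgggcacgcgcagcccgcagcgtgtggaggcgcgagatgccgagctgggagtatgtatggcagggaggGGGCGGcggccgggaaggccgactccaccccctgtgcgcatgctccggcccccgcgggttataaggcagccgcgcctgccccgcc
Slc35g1: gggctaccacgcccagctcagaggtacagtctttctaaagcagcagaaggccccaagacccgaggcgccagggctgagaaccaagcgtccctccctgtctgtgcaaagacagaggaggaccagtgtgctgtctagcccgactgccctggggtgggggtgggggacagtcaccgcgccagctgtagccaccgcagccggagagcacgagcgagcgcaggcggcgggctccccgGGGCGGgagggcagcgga
Stra6: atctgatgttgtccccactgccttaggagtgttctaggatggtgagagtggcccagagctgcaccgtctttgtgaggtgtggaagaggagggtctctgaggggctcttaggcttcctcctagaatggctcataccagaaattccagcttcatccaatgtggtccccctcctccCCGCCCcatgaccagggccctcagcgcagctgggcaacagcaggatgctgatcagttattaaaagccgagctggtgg

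The *Gja1* window was 50% G and C with 6 CpG dinucleotides and held 1 AP-1 match near its end. The *Nppc* window was 69.2% G and C with 24 CpG and held 1 TATAAA and 1 GC box. GC boxes, 1 in each, were the matches in the windows of *Slc16a1* (76.4% G and C, 37 CpG), *Slc35g1* (68.4%, 17 CpG) and *Stra6* (56.4%, 4 CpG). Over 32851 promoters of the same length, 12.4% held TATAAA, 32.7% the GC box, 4.46% the AP-1 site, 3.17% the forkhead motif and 14.02% the retinoid half-site. The forkhead motif and the retinoid half-site were in none of the 5 windows, which says only that these letters are not there. Promoters of *Crabp2*, *Foxc2*, *Cdh5*, *Thbd*, *Bace2* and *Dnajc5b* were not analysed here.

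The 10 leading lower genes included several known from bone. *Bglap*, which encodes osteocalcin, had 2 UMIs in MG3 at E15.5, a ratio of 0.0162 (0.00196 to 0.0585) to the other cells, and none at E17.5, at least 8.89-fold lower than the 13.1 CPM of the other cells. *Ifitm5*, an osteoblast membrane protein gene, stood at 5.59 and 29.9 CPM in MG3 against 138 and 427. *Smpd3*, a sphingomyelinase gene needed for bone mineralisation, had a ratio of 0.0232 (0.00477 to 0.0678) and 0.0378 (0.0196 to 0.0661). The remainder were *Bglap2*, *Bcl11b*, *Meis2*, *Iyd*, *Veph1*, *Col22a1* and *Lef1*. Of these, *Meis2*, a homeobox factor of the cranial mesenchyme, was at 3.56 CPM against 56.7 at E15.5, and had 3 UMIs at E17.5, a ratio of 0.0438 (0.00903 to 0.128). *Lef1*, the nuclear effector of Wnt signalling, had 1 MG3 UMI in each library, at ratios of 0.0343 (0.000868 to 0.192) and 0.0748 (0.00189 to 0.418). Over the 13 osteoblast genes of a list, 10 (76.9%) were lower and none higher, against 8.11% lower and 3.53% higher among all genes. The median ratio of the list was 0.0822 at E15.5 and 0.112 at E17.5, or 0.119 and 0.117 with genes at 0 UMIs set to their floor. *Ibsp*, bone sialoprotein, stood at 32.5 and 129.9 in MG3 against 1666 and 1712 in the other cells, and osteogenic clusters make up part of those other cells.

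The genes around the dura markers were followed by pathway, beginning with retinoic acid, a vitamin A derivative that meninges make and that acts through nuclear receptors. Of 17 counted genes, 5 were higher and 3 lower in MG3 in both libraries, with a median ratio of 1.72 at E15.5 and 1.41 at E17.5, against 3.53% higher and 8.11% lower among all genes. On the uptake and storage side, *Stra6* was joined by *Dhrs3*, a retinal reductase that turns retinal back into retinol, at 57.5 (47.4 to 69.1) CPM at E15.5 and 111 (97.2 to 127) at E17.5, 4.77 and 4.7 times the other cells. Of the enzymes that make retinoic acid, *Aldh1a2* stood at 5.09 and 13.7, against 63.2 and 148 in MG4, and *Aldh1a3* was lower, with 5.09 at E15.5 and 1 UMI at E17.5, at ratios of 0.128 (0.0615 to 0.237) and 0.0233 (0.00059 to 0.13). *Cyp26b1*, which degrades retinoic acid, was lower too, with 4 UMIs at E15.5 and none at E17.5, at least 4.76-fold lower. Among binding proteins and receptors, *Crabp1* was lower, 110.4 against 335 at E15.5 and 8.82 against 34 at E17.5, in contrast to *Crabp2*. The receptor gene *Rarb* was higher, at 29.5 and 28.9 against 5.77 and 7.21.

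Transcription factors known from meninges and cranial mesenchyme were divided. Of 41, 12 were higher and 9 lower, against 3.53% higher and 8.11% lower among all genes. The median ratio of the 41 was 1.42 and 1.17. Forkhead genes were among the higher: *Foxc1*, which meningeal development requires, stood at 92.6 (79.6 to 107) CPM at E15.5 and 84.3 (72.2 to 97.9) at E17.5, *Foxc2* as given above, *Foxp1* at 421 and 511, and *Foxd1* at 72.7 and 207. In thinned cells, *Foxc1* was found in 23.1% and 22.4% of MG3, 26.4% and 16.9% of MG2, and 21.0% and 25.7% of MG4. The homeobox genes *Six2*, *Six4* and *Alx1*, known from craniofacial mesenchyme, were higher too. *Six2* stood at 62 and 71 against 8.1 and 31.3 in the other cells, and *Alx1* at 102 and 133 against 41 and 58. The zinc finger genes *Zic2* and *Zic5* and the nuclear receptor gene *Nr2f2* were also higher. Factors of limb and cranial mesenchyme were among the lower ones. *Prrx1*, a marker of suture mesenchyme, stood at 73.8 and 112 in MG3 against 484 and 421, and *Dlx5*, *Dlx6*, *En1*, *Meis1*, *Meis2*, *Ebf2* and *Ebf3* were lower as well.

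Of 6 counted genes that mark dural and border cells, 5 were higher and *Dpp4* was lower, against 3.53% higher and 8.11% lower among all genes, with a median ratio of 4.74 at E15.5 and 4.59 at E17.5. *Foxp1*, *Mgp*, *Foxc2* and *Nppc* were among the higher genes. *Mgp*, matrix Gla protein, an inhibitor of calcification, stood at 1710.0 (1653 to 1769) and 2419 (2352 to 2488) CPM in MG3, while MG2 had 1990.1 and 2509. *Dpp4*, a cell-surface peptidase also used as a border cell marker, stood at 8.65 and 4.41 against 124 and 25.5. *Slc47a1*, an organic cation exporter used as a marker of dural border cells, had too few UMIs to be counted, but stood at 11.7 (7.42 to 17.6) and 50 (40.8 to 60.7) in MG3 against 0.257 and 0.398 in the other cells. Of the 9 periosteal dura genes, 4 were lower and none higher, against 8.11% lower among all genes, with median ratios of 0.936 and 0.612 beside 0.914 and 0.954 for all genes. Their summed level in MG3 was the 7th highest of 15 clusters in both libraries. The cartilage matrix protein gene *Matn4* was at 10.7 and 13.7 in MG3 and at 313 and 304 in MG2, and *Tnmd*, the tendon gene tenomodulin, was at 22.4 and 30.4 in MG3.

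Among connexin genes, 3 of 11 had enough UMIs to be counted and *Gja1* alone was higher in both libraries, beside 3.53% of all genes. *Gjb2* and *Gjb6*, which encode connexins 26 and 30, were largely in MG4: *Gjb6* had 1 MG3 UMI at E15.5, 0.0188 (0.000451 to 0.119) times its MG4 level, and stood at 5.88 CPM at E17.5 against 198 in MG4, and *Gjb2* stood at 3.05 and 6.86 against 28.6 and 91.6. For natriuretic peptides, 5 of 8 genes were counted and the ligand gene *Nppc* alone was higher. Its receptor gene *Npr2* stood at 14.8 in MG3 at E15.5 and 22.5 at E17.5, 1.48 (0.98 to 2.15) and 1.94 (1.41 to 2.6) times the other cells. The clearance receptor gene *Npr3* had 3 UMIs at E15.5, a ratio of 0.0944 (0.0194 to 0.277), and stood at 5.88 at E17.5, a ratio of 1.5 (0.77 to 2.66).

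Secreted signals that dura mater is known for were read next, beside the all-gene shares of 3.53% higher and 8.11% lower. Of 24 counted genes for BMP and TGF-beta ligands and antagonists, *Tgfb2* alone (4.17%) was higher and 7 (29.2%) were lower. The median ratios of these 24 were 0.772 and 0.706. *Tgfb2*, a ligand known from meninges and from suture development, stood at 175 (157 to 194) CPM at E15.5 and 119 (105 to 135) at E17.5, and no other cluster had more. Its relative *Tgfb3* stood at 71.7 and 85.8, ratios of 1.26 and 0.987. The ligand genes *Bmp3*, *Bmp5* and *Tgfb1* were lower, as were *Inhba* and *Inhbb* and the antagonist gene *Fst*. Of the FGF ligand, receptor and feedback genes, 6 of 14 (42.9%) were lower and none higher. The medians of these 14 were 0.339 and 0.449, the second 0.539 with genes at 0 UMIs set to their floor. *Fgfr1* stood at 60 and 97 against 148 and 137 in the other cells, and the ligand gene *Fgf9* had 1 MG3 UMI in each library, at ratios of 0.0657 (0.00166 to 0.368) and 0.0958 (0.00242 to 0.537). None of the 10 counted Hedgehog genes were higher or lower in both libraries, and their median ratios were 1.24 and 1.21.

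Wnt genes were lower in 14 of 27 (51.9%) and higher in 3 (11.1%), against 8.11% lower and 3.53% higher among all genes. The median ratios of the 27 were 0.234 at E15.5, or 0.254 with genes at 0 UMIs set to their floor, and 0.327 at E17.5. The higher genes all encode secreted inhibitors or modulators of Wnt ligands. *Dkk2* stood at 308 (284 to 334) CPM at E15.5 and 102 (89 to 117) at E17.5, *Sfrp1* at 397 (369.9 to 426) and 244 (224 to 267), and *Frzb* at 17.3 and 17.6. *Sfrp2*, of the same inhibitor family, went the other way, at 162 and 229 in MG3 against 2099 and 2026 in the other cells. The Wnt target gene *Axin2* was at 5.59 and 2.94 CPM against 23.9 and 8.98, although its E17.5 ratio was 1.08 once cells were thinned to 3000 UMIs. *Nkd1*, *Lef1* and *Tcf7*, which act within the responding cell, were lower. So were *Wif1*, *Dkk1* and *Sfrp4*, which like *Sfrp2* encode secreted inhibitors.

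Most growth factor and guidance genes were neither higher nor lower in both libraries. Of 29 counted IGF, PDGF, VEGF and chemokine genes, 3 (10.3%) were higher and 2 (6.9%) lower, with median ratios of 0.903 and 1.03. The lower share lay near the 8.11% of all genes, of which 3.53% were higher. *Igfbp2*, an IGF-binding protein, stood at 678 (642 to 715) at E15.5 and 1863 (1804 to 1923) at E17.5, and *Mdk*, the heparin-binding growth factor midkine, at 2757 (2684 to 2831) and 1794 (1737 to 1854). The alarmin gene *Il33* stood at 37.6 and 44.1 against 3.84 and 8 in the other cells. *Cxcl14* and *Ccl11*, both chemokine genes, were lower. Among Notch, ephrin and semaphorin genes, 2 of 30 (6.67%) were higher and 6 (20%) lower, with medians of 0.813 and 1.10. The guidance ligand gene *Slit2* stood at 112 and 90.2 against 40.7 and 12.4, and the ephrin receptor gene *Epha7* was the other higher gene. *Dlk1*, a non-canonical Notch ligand gene, was lower, at 329.6 and 175 against 4195 and 987.

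Most collagen genes were neither higher nor lower by this measure, by which 3.53% of all genes were higher and 8.11% lower. Of 29 collagen genes, 3 (10.3%) were higher and 4 (13.8%) lower, with median ratios of 1.251 and 1.37. *Col14a1*, a collagen that binds to fibrils, stood at 1272 (1222 to 1322) and 794 (756 to 834) CPM against 224 and 138 in the other cells, and *Col4a1* and *Col16a1* were the other higher genes. *Col1a1*, the main chain of fibrillar collagen, stood at 9960.0 and 14691, ratios of 1.58 and 1.37, short of 2-fold. Of 45 other matrix protein genes, 5 (11.1%) were higher and 12 (26.7%) lower. The median ratios of these 45 were 0.701 and 0.811 (0.853 at E17.5 with genes at 0 UMIs at their floor). The elastic fibre genes *Mfap2*, at 2732 and 3118, *Mfap4*, at 2257 and 3439, and *Fbln1*, at 608 and 1125, were higher, as were the proteoglycan gene *Vcan* and *Mgp*. *Fbn1*, also an elastic fibre gene, went the other way and was lower. *Postn*, *Lum* and *Dpt*, all matrix genes of loose connective tissue or periosteum, were lower. *Lum* stood at 564 and 751 against 2104 and 1551. Of 19 basement membrane genes, with median ratios of 1.20 and 1.49, *Lamb2*, *Nid2* and *Col4a1* were higher and *Col15a1* and *Itga8* lower, and *Lamb2*, a laminin chain, stood at 134 and 199 against 38.6 and 31.9.

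Junction genes other than *Gja1* were read as a list. Of 25 counted junction and adhesion genes, 3 (12%) were higher, among them *Cdh5* and *Cldn11*, and 8 (32%) were lower. Among all genes, 3.53% were higher and 8.11% lower. The median ratios of these 25 were 0.465 and 0.610 (0.718 at E17.5 with genes at 0 UMIs at their floor). *Cdh2*, N-cadherin, which joins mesenchymal cells, stood at 3.56 and 7.35 against 43.1 and 51.2 in the other cells. *L1cam* counted as lower, but its E15.5 ratio of 0.308 became 1.47 once cells were thinned. Transporter and barrier genes were higher in 8 of 20 and lower in 5, with medians of 1.06 (1.16 with genes at 0 UMIs at their floor) and 1.58. *Slc6a6*, the taurine transporter, stood at 141 (125 to 158) and 216 (196 to 237), *Slc38a2*, an amino acid carrier, at 574 and 608, and *Slc23a2*, the vitamin C transporter SVCT2, at 88 and 91.6. *Aqp1*, the water channel, stood at 212 and 209 against 54.4 and 83.8 in the other cells, and *Slc4a10*, a sodium bicarbonate transporter, at 17.8 and 64.7. *Slc7a2*, *Slc16a1* and the prostaglandin transporter gene *Slco2a1* were the other higher genes, and *Slc2a1*, the glucose transporter GLUT1 of barrier endothelium, was among the lower ones at 5.59 and 5.88. Of 25 metalloproteinase and inhibitor genes, 3 were higher and 2 lower, with medians of 1.60 and 1.43, and *Mmp16*, a membrane-type metalloproteinase, stood at 357 and 297 against 148 and 48.9.

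Cytoskeletal and contractile genes were lower in 11 of 23 (47.8%) and higher in none, with medians of 0.508 and 0.401. Among all genes, 8.11% were lower and 3.53% higher. *Vim*, which encodes the intermediate filament protein vimentin and is usually a general marker of fibroblasts, stood at 366 (340.0 to 394) CPM at E15.5 and 370.0 (344 to 397) at E17.5 in MG3 against 1986 and 1787 in the other cells. MG3 was the lowest of the 15 clusters for *Vim* in both libraries. Of 24 cell cycle genes, 14 (58.3%) were lower and none higher, with medians of 0.490 and 0.302, beside the same shares of all genes. These genes were read in the same cells whose S and G2M calls were few. *Mki67*, a marker of cycling cells, stood at 19.3 and 8.82. *Cdkn1c*, the cell cycle inhibitor p57, was highest in MG3 of all clusters in both libraries at 9471 and 5668, ratios of 1.9 (1.87 to 1.93) and 2.53 (2.49 to 2.58). Another inhibitor gene, *Cdkn1a*, went the other way and was among the 14 lower genes. When cells with an S or G2M call were left out of all clusters, *Top2a* at E15.5 had a ratio of 1.30 and *Cdc20* at E17.5 one of 1.20, so the lower counts of these cell cycle genes turned over there.

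Markers of other cell types were checked as whole lists, beside the all-gene shares of 3.53% higher and 8.11% lower. Macrophage markers summed to 77.8 CPM in MG3 at E15.5, the highest of the clusters, whose others ranged from 26.9 to 61.9, and to 186 at E17.5, within the 147 to 195 of the others. None of the 8 was higher in both libraries, and their median ratios were 1.80 and 1.10. Endothelial markers summed to 111 and 121, *Cdh5* included, within the 10.3 to 140.0 and 15.4 to 139 of the other clusters, with median ratios of 0.499 and 1.16. None of the pericyte and smooth muscle, glia and neuron, chondrocyte, or epithelial, muscle and blood markers were higher in both libraries, out of 6, 3, 7 and 4 counted, and 4, 1, 2 and 0 of them were lower. Their median ratios, in the same order, were 0.459 (0.741 with genes at 0 UMIs at their floor), 0.297, 0.852 and 0.966 for E15.5, followed by 0.486, 0.498, 0.811 and 0.983 for E17.5. Dissociation response genes, the immediate early genes that enzyme treatment induces, summed to 2984 CPM at E15.5, the lowest of the 15 clusters, and to 1501 at E17.5, where only 1 cluster was lower. Of these 19 genes, 8 (42.1%, beside 8.11% of all genes) were lower and none higher in MG3, with medians of 0.354 and 0.387. The part of dissociation, and of free RNA from other cells, in the results above was not tested.

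MG3 resembled other meningeal clusters most. Over log2 levels with 10 added, across 11894 genes, MG3 correlated with MG2 at r of 0.976 at E15.5 and 0.963 at E17.5, with MG4 at 0.970 and 0.959, and with MG1 at 0.948 and 0.949, and the lowest value was 0.859 and 0.871, for PO2. The study read MG2 as likely periosteal dura mater, and its values are set beside those of MG3 next.

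Of 7121 genes counted between MG3 and MG2, 117 (1.64%) were at least 2-fold higher in MG3 in both libraries and 125 (1.76%) were lower. The 117 became 61 after thinning, 67 with E17.5 suffix 1 alone and 63 with suffix 2 alone. Leading genes on the MG3 side were *Thbd*, *Lypd2*, *Cdh5*, *Stra6*, *Arhgap20*, *Vit*, *Sfrp1*, *Bace2*, *Igfbp6* and *Rarres1*. *Sfrp1* stood at 397 and 244 CPM in MG3 and 54.9 and 13.2 in MG2, a ratio of 7.23 (6.1 to 8.62) and 18.5 (14.2 to 24.4). *Thbd* differed by 10.7 (7.82 to 15) and 18 (13.8 to 23.8) times and *Stra6* by 9.56 (5.51 to 17.8) and 17.4 (10.1 to 32.1) times. On the MG2 side, *Matn4* was 0.0341 (0.021 to 0.0525) and 0.0452 (0.0299 to 0.0656) times its MG2 level in MG3, and *Scx*, the tendon transcription factor scleraxis, stood at 4.58 and 1.96 in MG3 against 45.5 and 87.6 in MG2. *Gpha2*, a glycoprotein hormone subunit gene, stood at 11.7 and 12.2 against 93 and 290.3. *Chad*, *Kcns1*, *Cpm*, *Sox6*, *Dlx5*, *Cadm1* and *Gria1* completed the 10 genes on that side, and *Kcns1*, a potassium channel subunit gene, had no MG3 UMI at E15.5, at least 25.6-fold lower than the 39.1 of MG2.

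Of 5195 genes counted between MG3 and MG4, 49 (0.943%) were at least 2-fold higher in MG3 in both libraries and 24 (0.462%) were lower. The 49 became 21 with E17.5 suffix 1 alone, 14 of them shared, and 27 with suffix 2 alone. With high doublet scores left out the count was 52, and 37 of the 49 were among them. MG4 was small in the earlier library, where it had 64 members, and 17.2% of these had high doublet scores against 4% in MG3. In the later library MG4 had 202 members, 5.94% of them with high scores against 4.24% in MG3. On the MG3 side, *Col14a1* stood at 263 and 148 CPM in MG4, which made MG3 4.83 (4.14 to 5.66) and 5.35 (4.71 to 6.09) times higher. *1500015O10Rik*, the gene for the secreted protein augurin, stood at 3071 and 3294 in MG3 and 949.6 and 780.3 in MG4. *Clec11a*, which encodes the growth factor osteolectin, stood at 656 and 824 against 175 and 177, and *Wfdc1* at 59.5 and 112 against 12 and 4.74. *Nlgn1*, *Ltbp2*, *Vwc2*, *Sorcs2*, *Ces2g* and *Cgref1* were the other leading genes. The MG4 side included the arachnoid markers *Tbx18* and *Cldn11* given above. *Vtn*, vitronectin, had no MG3 UMI at E15.5, at least 117-fold lower than MG4, and 3 UMIs at E17.5, a ratio of 0.00445 (0.000914 to 0.0131). *Ptgds*, the prostaglandin D2 synthase of the leptomeninges, stood at 3.56 in MG3 against 78.2 in MG4 at E15.5, and at E17.5 it had 1 MG3 UMI, a ratio of 0.00159 (4.01e-05 to 0.00887). Other leading genes were *Nnat*, *Ifitm1*, *Plat*, *Ldhb* and *Ntrk2*.

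**Figure D4:**
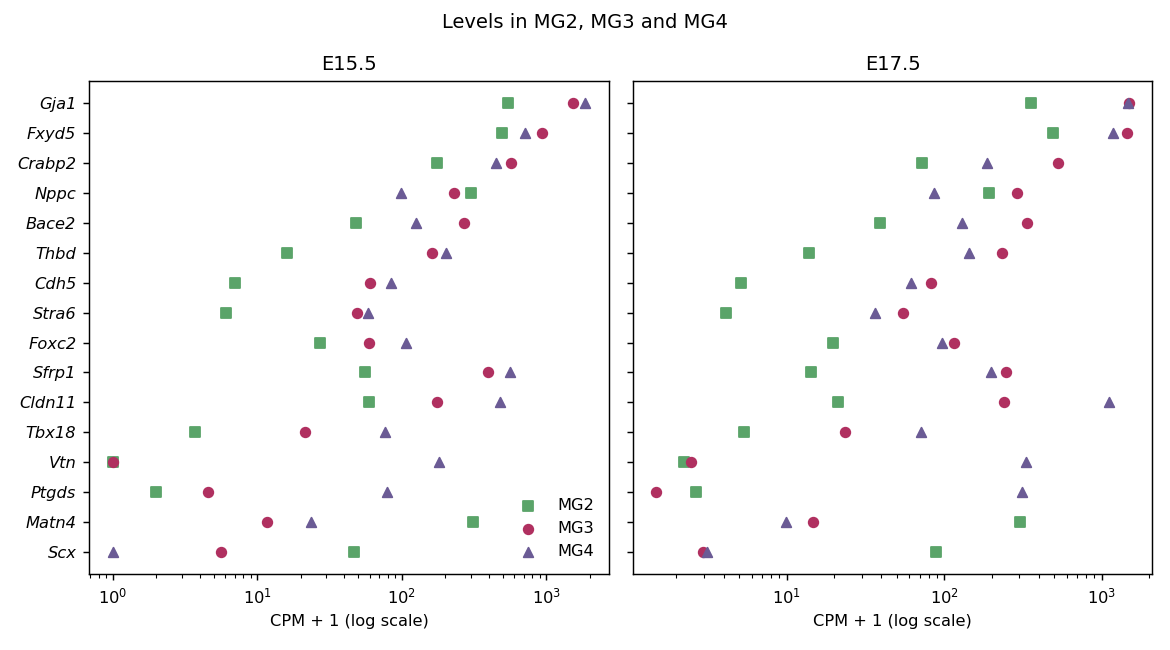
Levels of 16 genes in MG2, MG3 and MG4, in CPM with 1 added on a log axis, E15.5 and E17.5 in separate panels. *Sfrp1* and *Thbd* set MG3 apart from MG2, *Vtn* and *Ptgds* set it apart from MG4, and *Gja1* lies close together in MG3 and MG4.

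Pairs of genes in single cells showed the same division at 3000 UMIs per cell. *Crabp2* and *Nppc* were found together in 36.2% and 38.8% of MG3 cells, against 18.2% and 7.82% of MG2 and 21.0% and 10.4% of MG4 cells. Unthinned, the MG3 shares were 76% and 79.4%, those of MG2 41.4% and 23.5%, and those of MG4 40.6% and 27.2%. *Nppc* and *Matn4* were together in 2.01% and 1.21% of MG3 cells but 27.6% and 18.2% of MG2 cells (unthinned, 7.5% and 12.1% against 54.6% and 41.0%). *Crabp2* and *Gjb6* were together in 0 of 199 MG3 cells at E15.5, with an exact upper limit of 1.84% for cells with both UMIs at that depth, and in 0.606% at E17.5, against 6.45% and 18.3% of MG4 cells (unthinned, 0.5% and 3.03% against 14.1% and 37.6%). Median depths of MG3, MG2 and MG4 cells before thinning were 9389, 7174 and 9400 UMIs at E15.5, and 11987, 9260 and 8905 in the later library, and among macrophages *Nppc* was found in 0.761% and 0.588% of thinned cells.

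Stage values were set side by side for MG3 and for the other labelled cells. Of 6796 genes with at least 50 MG3 UMIs over both libraries, 167 (2.46%) were at least 2-fold higher in MG3 at E17.5 and at least 1.5 times more so than in the other cells, and 109 (1.6%) were lower in the same way. The higher count fell to 65 once cells were thinned, 27 of them among the 167, and to 96, 105 and 105 with suffixes 1, 2 and 3 alone. *Lypd2*, a Ly6 family gene, stood at 66.6 (55.7 to 79.1) CPM at E15.5 and at 186 (168 to 206) at E17.5, with 185, 164 and 198 in the suffixes. The stage ratio was 2.79 (2.29 to 3.44) in MG3 and 0.105 in the other cells. *Sult1a1*, a sulfotransferase gene, stood at 6.61 and 37.2, *Hs3st1*, a heparan sulfate sulfotransferase gene, at 40.2 and 160.2, and *Tmeff2* at 55.4 and 155. *Hmox1*, the stress-inducible heme oxygenase, stood at 16.8 and 99.5, but its suffix levels of 29.4, 12.2 and 186 show that suffix 3 set the E17.5 value, and in suffix 2 the gene was below its E15.5 level. *Clu*, which encodes the secreted chaperone clusterin, and *Spock3* led by the ratio between MG3 and the other cells, with MG3 stage ratios of 1.7 and 1.57 beside 0.157 and 0.195 elsewhere, and did not reach 2-fold within MG3.

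The 8 leading lower genes included 3 that act in cell division. *Cenpf*, a kinetochore gene, stood at 37.1 at E15.5 and 6.37 at E17.5, *Cenpa*, the centromeric histone, at 49.3 and 15.2, and *Cdca3* at 28 and 13.2. *Psat1*, an enzyme of serine synthesis, stood at 31.5 and 12.2, and *Scd1*, a fatty acid desaturase gene, at 26.4 and 8.82. *Net1*, *Fras1* and *Thbs2* led by the same comparison, with stage ratios of 3.59, 2.48 and 3.33 in the other cells against 0.848, 0.602 and 0.847 in MG3. The dura markers *Gja1* and *Crabp2* had stage ratios of 0.976 (0.927 to 1.03) and 0.934 (0.858 to 1.02) in MG3, and *Fxyd5* one of 1.54 (1.45 to 1.63), beside 1.64 in the other cells.

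**Figure D5:**
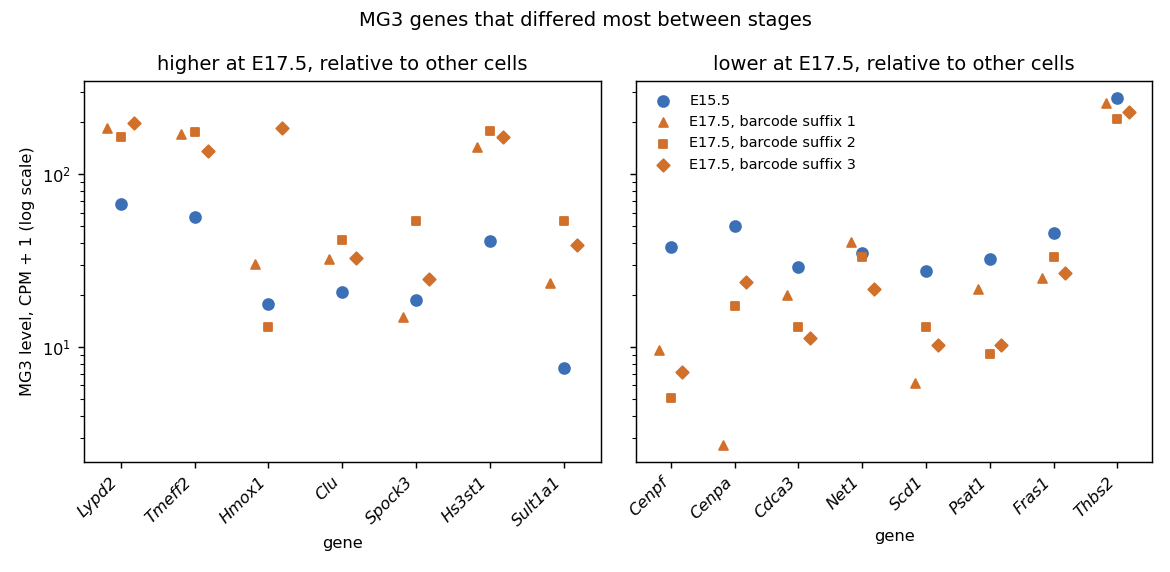
Levels in MG3 of leading genes each way between stages, relative to the other labelled cells, in CPM with 1 added on a log axis, with 1 point for E15.5 and 1 for each of the E17.5 suffixes 1, 2 and 3. The suffix points of *Lypd2* lie together above E15.5, while those of *Hmox1* spread from 12.2 to 186.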

How the data were processed

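The authors deposited 1 matrix of UMI counts per stage, aligned to mm10, and a cell table with cluster labels, UMI counts and the percent of mitochondrial and haemoglobin transcripts per cell. Cell calling and clustering used Cell Ranger and Seurat 3.2.0 per the study's methods, which name 1 older release of Cell Ranger for all samples, whereas the E15.5 matrix header names version 3.1.0. The E15.5 matrix lists 31053 genes and that of E17.5 lists 27998, and 26589 symbols in both were used. At E15.5 the matrix held fewer UMIs per MG3 cell than the table (median 9389 against 12850), while at E17.5 they were equal, so levels were computed from the matrices alone. Of the labelled E15.5 cells, 5 were not found in the matrix. Kept cells, labelled or not, had at least 1000 UMIs and 1000 genes, at most 7.5% mitochondrial and 3% haemoglobin transcripts.

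UMIs were summed per cluster and divided by the cluster's total, times 1000000 (CPM scale). A gene counted as higher or lower when the ratio was at least 2-fold in both libraries, with at least 50 UMIs in both groups together per library, and no test was made, since each stage has 1 library and cells are not replicates. A gene at 0 UMIs was given a floor of 3 counts. Named genes were the dura markers, the 15 genes with the largest ratio and the 10 with the smallest in the less extreme library, 10 each way against MG2 and MG4, 8 each way between stages, and members of 31 gene lists. Some genes that these rules name are not reported here. Members, lists and rules were chosen with earlier results of these data known. Doublets were scored with Scrublet in scanpy 1.11.5 per barcode suffix and scores at or above the 94th percentile were left out as an alternative only. Scripts were tested on simulated data, and used Python 3.11.15, numpy 2.4.6, scipy 1.17.1 and pandas 2.3.3. Promoter sequences came from a RefSeq table (GRCm38.p6) and gene positions from GENCODE annotation of GRCm38.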

Additional observations from a re-analysis of the deposited data

Results flagged for a closer look

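For 10 genes of the lists, the MG3 level was above that of the remaining labelled cells in one library and below it in the other, with each E17.5 suffix on the E17.5 side. The difference between stages was not tested, with 1 library each, and stage, enzymes, sorting and gene annotation cannot be told apart. *Dcn*, which encodes the proteoglycan decorin, stood at 2702 CPM in MG3 against 5209 elsewhere at E15.5, a ratio of 0.519, and at 4603 against 1797 at E17.5, a ratio of 2.56. For *Igf1*, a growth factor gene, the ratios were 0.297 and 1.47, with MG3 levels of 140.4 and 183 and levels in the other cells of 473 and 124. *Igfbp6*, an IGF-binding protein gene, had ratios of 0.526 and 2.22, and *Kitl*, the ligand of the receptor Kit, of 0.315 and 5.20. The transcription factor genes *Ebf1*, at 0.554 and 1.44, and *Twist2*, at 0.514 and 2.63, turned the same way, as did the neuronal gene *Stmn2*, at 0.297 and 2.04. For *Twist2* the MG3 levels were 95.6 and 90.2 CPM and those elsewhere 186 and 34.3, so the turn came with the level of the other cells. *Thbs2*, a matrix glycoprotein gene, turned the opposite way, with 2.14 and 0.543, and so did the tropomyosin gene *Tpm1*, with 2.25 and 0.673. *Cdh13*, T-cadherin, had a ratio of 3.29 at E15.5 and 0 MG3 UMIs at E17.5, a ratio of 0 and at least 2.19-fold lower than the other cells.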

How the results depend on the processing

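The counts of genes between MG3 and the other cells moved by less than 1.5 times when cells were weighted equally, scaled by TMM, thinned to 3000 UMIs, cleared of shallow cells, of high doublet scores or of S and G2M cells, taken from 1 suffix, or compared with equally weighted clusters. Of the 420 higher genes, 383 were shared under equal weights, 410 under TMM, 396 without high doublet scores, 331 without S and G2M cells and 235 after thinning, which left 308. These scalings moved the median ratio of all genes by at most 0.052 on the log2 scale. With a 1.5-fold limit the counts were 896 higher and 1667 lower, 315 against MG2, 207 against MG4 and 410 between stages. With a minimum of 20 UMIs they were 211 against MG2, 85 against MG4 and 397 between stages, and with none 734 higher, 3859 lower, 616, 512 and 1878, since more genes were then counted. The 117 genes above MG2 became 61 after thinning, 67 with suffix 1 and 63 with suffix 2, and the 49 above MG4 became 21 and 27. The 167 genes higher at E17.5 became 65 after thinning and 96, 105 and 105 with suffixes 1, 2 and 3 alone, of which 27, 44, 45 and 66 were among the 167. The cause of these changes was not tested.

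The share of MG3 was 2.44% and 1.88% of all kept cells, 4.95% and 3.55% of labelled cells without S or G2M calls, and 3.81% and 1.52% of labelled cells in suffixes 1 and 2. Of 4011 ratios of named genes under the alternatives, 3150 stayed within the counting interval, 851 moved outside it and 10 changed direction, and the cause was not tested. These were *Axin2* at E17.5 (1.08) and *L1cam* at E15.5 (1.47) after thinning, *Cdc20* at E17.5 (1.20) and *Top2a* at E15.5 (1.30) without S and G2M cells, *Cdh4* in suffix 1 (1.06), *Des* (1.17), *Rgs5* (1.15), *Rspo2* (1.27) and *Spry2* (1.19) in suffix 2, and *Ngfr* in suffix 3 (1.21). No paired analysis was possible because each stage has 1 library and suffixes carry no stage pairing. Depth limits genes at few UMIs: 284 of the 965 lower genes had no MG3 UMI in at least 1 library, and 224 had at least 10 in both.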

Other observations

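*Igf2*, the imprinted growth factor gene, stood at 40.2 and 1849.8 CPM in MG3 and at 44.5 and 1949.8 in the other labelled cells. The libraries were counted with different gene lists, and the stage values of this gene are given without comparison.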
